A study of Mus musculus with 3 samples.

Results

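The genes described here are 10 genes of Notch signaling and of arterial and venous identity, chosen by name from the 29907 genes that could be named in the transcriptome of isolated mouse brain vessels. They are the ligands Dll4, Jag1 and Jag2, the receptors Notch1, Notch3 and Notch4, the target gene Hey1, the arterial gene Efnb2, and the venous genes Ephb4 and Nr2f2. All 10 were found and all 10 passed the minimum of 50 normalized counts. For each of 3 libraries, brain vessels of 3 male mice aged 3 months were combined before sequencing, and with 1 library per group there were no replicates. The first library was C57BL6 WT, the second C57BL6-BALB/c WT, and the third Cx30-/-, in which Gjb6, the gene of the astroglial gap junction protein Connexin 30, is deleted in every cell of the body. The labels give the Cx30-/- mice the strain C57BL6, whereas the methods of the study give them and their Cx30+/+ controls a mixed C57BL6/Balbc background. By the methods the WT library of matching background is C57BL6-BALB/c WT, and by the labels it is C57BL6 WT. Because these sources differ, genotype and background cannot be told apart. The total behind the deposited fractions, taken here as the depth, was 24830975 for C57BL6 WT, 21170766 for C57BL6-BALB/c WT and 20654144 for Cx30-/-. As a check of the labels, Gjb6 itself stood at 2531 normalized counts in C57BL6 WT vessels, 2426 in C57BL6-BALB/c WT vessels and 101 in Cx30-/- vessels.

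Notch receptors are cut after binding a ligand on the neighbouring cell, and the freed intracellular part joins the DNA-binding protein RBPJ to switch on genes of the Hes and Hey families. In vessels, Dll4, Notch1 and Notch4 are known mainly from endothelial cells, where Notch signaling favours arterial fate and restrains sprouting, while Notch3 is the receptor of smooth muscle cells and pericytes. Ephrin-B2, the product of Efnb2, marks arterial endothelium, its receptor EphB4 marks veins, and the nuclear receptor COUP-TFII, encoded by Nr2f2, maintains venous identity by holding down Notch genes.

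The 250 bases upstream of the start were looked at in the mouse promoters of RefSeq (GRCm38.p6), which held 9 of the 10 genes. Dll4 is shown as the gene with the widest range among the libraries, and Efnb2 and Ephb4 as the arterial and venous pair whose ratio is given later. Each is written 5′ to 3′ on the strand of its gene, with GC boxes (GGGCGG on either strand) in capitals.
Dll4, plus strand, chr2:119325534-119325783: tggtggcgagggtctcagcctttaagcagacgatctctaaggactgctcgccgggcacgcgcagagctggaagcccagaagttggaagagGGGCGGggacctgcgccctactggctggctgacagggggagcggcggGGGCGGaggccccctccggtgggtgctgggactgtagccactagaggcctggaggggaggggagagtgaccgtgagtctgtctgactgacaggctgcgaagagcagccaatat
Efnb2, minus strand, chr8:8661243-8661492: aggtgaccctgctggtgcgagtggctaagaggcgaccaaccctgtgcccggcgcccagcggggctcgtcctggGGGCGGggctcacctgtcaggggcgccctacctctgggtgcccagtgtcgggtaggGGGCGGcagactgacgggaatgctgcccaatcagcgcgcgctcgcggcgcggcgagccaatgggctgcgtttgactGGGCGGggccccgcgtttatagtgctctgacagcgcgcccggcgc
Ephb4, plus strand, chr5:137349859-137350108: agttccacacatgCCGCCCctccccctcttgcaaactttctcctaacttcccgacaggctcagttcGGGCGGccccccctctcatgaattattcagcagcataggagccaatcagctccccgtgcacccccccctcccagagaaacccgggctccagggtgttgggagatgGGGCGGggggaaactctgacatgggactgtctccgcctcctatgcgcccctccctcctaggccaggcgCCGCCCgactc
These windows held 2 GC boxes for Dll4, 3 for Efnb2 and 4 for Ephb4. Annotated exons cover 31 bases of the Dll4 window, 124 of that of Jag1, 27 of that of Notch4 and 2 of that of Notch1. The windows of Jag2 and Nr2f2 lie wholly in annotated exons (250 bases each), and all 9 windows enter the counts that follow. A GC box was present in 6 of the 9 windows, against 32.7% of all 32851 windows of the same length, and the median GC content was 65.6% against 52.4%. The letters TGGGAA, the core of the RBPJ site, were in 0 of the 9 windows and in 21.6% of all windows (either strand), and the E-box CACGTG, which Hey proteins can bind, in 0 of the 9 and in 6.02% of all. For Nr2f2 the RefSeq start lay 6153 bases from that of the transcript counted here. Another 4 starts, of Notch3, Notch4, Jag1 and Jag2, lay 27 to 281 bases from it.

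To set genes beside each other, normalized counts (counts divided by the library's median-of-ratios size factor) were divided by the transcript length in the files. On this per-length scale Jag2 was the highest of the 10 in every library, with 1243 normalized counts per kilobase in C57BL6 WT, 1408 in C57BL6-BALB/c WT and 1671 in Cx30-/- vessels. The lowest gene differed, being Nr2f2 in C57BL6 WT (389), Dll4 in C57BL6-BALB/c WT (227) and Efnb2 in Cx30-/- vessels (522). The median per-length level of the 10 genes was 552 in C57BL6 WT, 518 in C57BL6-BALB/c WT and 792 in Cx30-/-. Reads covered 91.8% to 100% of the bases of the transcripts, the lowest value being that of Dll4 in the C57BL6-BALB/c WT library. The plot of levels shows the Cx30-/- library uppermost for each gene.

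**Figure D1:**
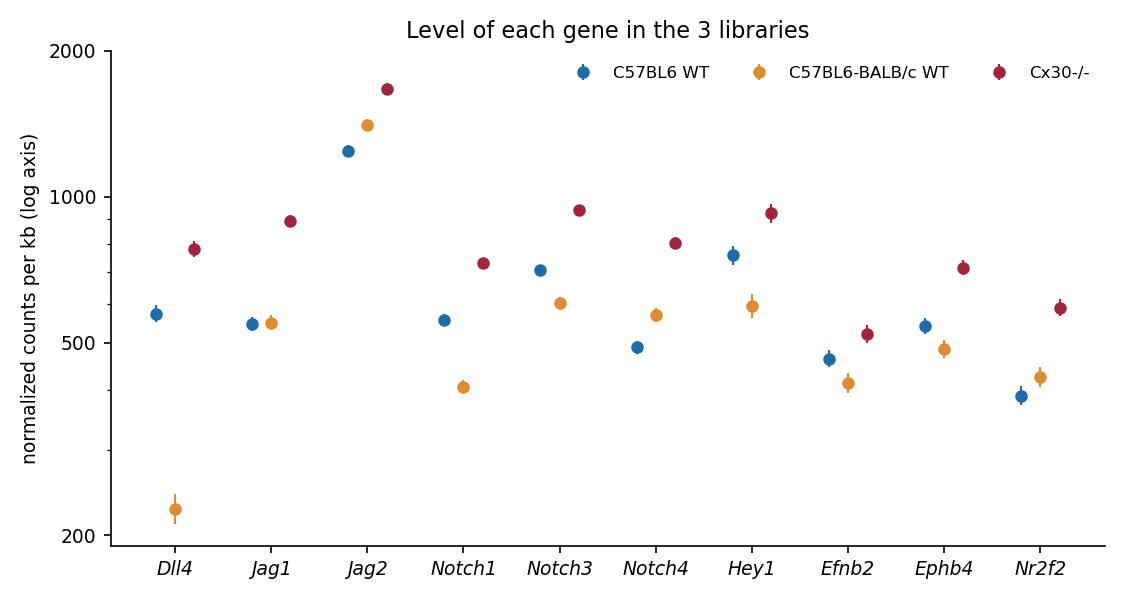
Normalized counts per kilobase of transcript (log axis) of the 10 genes in the C57BL6 WT (blue), C57BL6-BALB/c WT (orange) and Cx30-/- (red) libraries, 1 library each. Error bars are 95% exact intervals of the count and cover counting error only. Jag2 is highest throughout (1243 to 1671), and Dll4 in C57BL6-BALB/c WT vessels is lowest (227).

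Among the ligands, Dll4 differed most between libraries. It had 2151 normalized counts in C57BL6 WT vessels, 851 in C57BL6-BALB/c WT and 2923 in Cx30-/- vessels. The C57BL6-BALB/c WT library thus stood apart, and Dll4 was 3.43-fold higher in Cx30-/- than in C57BL6-BALB/c WT vessels (log2 ratio 1.78, 95% interval 1.67 to 1.90) but 1.36-fold higher than in C57BL6 WT vessels (0.44, 0.36 to 0.52). These intervals, here and in what follows, are exact conditional binomial intervals of both counts and cover counting error alone, leaving out how mice or preparations vary. Between the WT libraries the log2 ratio of Dll4 was -1.34 (-1.45 to -1.22), C57BL6-BALB/c relative to C57BL6. A second, shorter transcript row of Dll4, with 310, 106 and 375 counts in C57BL6 WT, C57BL6-BALB/c WT and Cx30-/- vessels, gave a log2 ratio of 1.78 for Cx30-/- over C57BL6-BALB/c WT. This row shares 0 bases with Gm14207, a gene on the opposite strand that overlaps 214 of the 3747 exon bases of the main Dll4 transcript and from which reads cannot be told apart in a library without strand. Rows of the same gene can count the same alignments, so a shorter row, here and below, is not independent of the main one.

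Jag1, a ligand of endothelial and smooth muscle cells, was almost equal in the WT libraries, with 3062 normalized counts in C57BL6 and 3087 in C57BL6-BALB/c vessels. In Cx30-/- vessels it had 4988 normalized counts, which was 1.63-fold higher than in C57BL6 WT (log2 ratio 0.70, 0.64 to 0.77) and 1.62-fold higher than in C57BL6-BALB/c WT (0.69, 0.63 to 0.76). The order of the WT libraries could not be told for Jag1, since the interval of their log2 ratio ran from -0.06 to 0.08. Jag2, another ligand of the same family, had 5039 normalized counts in C57BL6 WT vessels, 5707 in C57BL6-BALB/c WT and 6776 in Cx30-/- vessels. Its log2 ratio was 0.43 (0.38 to 0.48) over C57BL6 WT and 0.25 (0.19 to 0.30) over C57BL6-BALB/c WT, the smallest of the 10 genes in the latter comparison.

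The receptors were also highest in the Cx30-/- library, with different orders of the WT libraries. For Notch1 the values were 5289.9 normalized counts in C57BL6 WT, 3844 in C57BL6-BALB/c WT and 6931 in Cx30-/- vessels. Its log2 ratio was 0.39 (0.34 to 0.44) over C57BL6 WT and 0.85 (0.79 to 0.91) over C57BL6-BALB/c WT. Notch3, the mural receptor, followed the same order with 5670 normalized counts in C57BL6 WT, 4843 in C57BL6-BALB/c WT and 7559 in Cx30-/- vessels. The log2 ratio of Notch3 was 0.41 (0.37 to 0.46) over C57BL6 WT and 0.64 (0.59 to 0.70) over C57BL6-BALB/c WT. In Notch4, an endothelial receptor, the WT order was the opposite, with 3221 normalized counts in C57BL6 WT, 3760 in C57BL6-BALB/c WT and 5294 in Cx30-/- vessels. Notch4 had the largest log2 ratio of the 10 genes over C57BL6 WT, 0.72 (0.66 to 0.78), and 0.49 (0.43 to 0.56) over C57BL6-BALB/c WT.

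Reads of Notch1 and Notch3 are partly shared with other genes. On the opposite strand of Notch1, 0610009E02Rik overlaps 1068 and Gm13568 another 414 of its 9488 exon bases. For Notch3 the overlap with Gm17276 was 488 of 8016 bases. Stretches of 50 bases common to the transcripts of any pair of the 10 genes were not found (0), so that these family members do not share such reads with each other.

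Hey1, a transcription factor induced by Notch, had 1666 normalized counts in C57BL6 WT vessels, 1309 in C57BL6-BALB/c WT and 2037 in Cx30-/- vessels. Its log2 ratio was 0.29 (0.20 to 0.38) over C57BL6 WT and 0.64 (0.53 to 0.74) over C57BL6-BALB/c WT. Hey1 thus had the library order of Dll4, Notch1, Notch3, Efnb2 and Ephb4, which was also that of each of 10 general endothelial markers given below.

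Of the arterial and venous genes, the venous ones had the larger log2 ratios in the transcript rows used. Efnb2 had 2003 normalized counts in C57BL6 WT vessels, 1785 in C57BL6-BALB/c WT and 2257 in Cx30-/- vessels. With log2 ratios of 0.17 (0.09 to 0.26) and 0.34 (0.24 to 0.43) it lay closest to C57BL6 WT of all 10 genes. Its shorter transcript row had 240, 189 and 265 counts in C57BL6 WT, C57BL6-BALB/c WT and Cx30-/- vessels. That row gave log2 ratios of 0.41 (0.15 to 0.67) and 0.45 (0.17 to 0.72). Ephb4 had 2352 normalized counts in C57BL6 WT vessels, 2106 in C57BL6-BALB/c WT and 3097 in Cx30-/- vessels, with log2 ratios of 0.40 (0.32 to 0.47) and 0.56 (0.47 to 0.64). Nr2f2 had 1641, 1792 and 2488 normalized counts in C57BL6 WT, C57BL6-BALB/c WT and Cx30-/- vessels, and log2 ratios of 0.60 (0.51 to 0.69) and 0.47 (0.38 to 0.57). A shorter transcript row of Nr2f2 that starts elsewhere, with 752, 768 and 936 counts in the same order, gave 0.58 (0.44 to 0.72) and 0.24 (0.10 to 0.38).

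**Figure D2:**
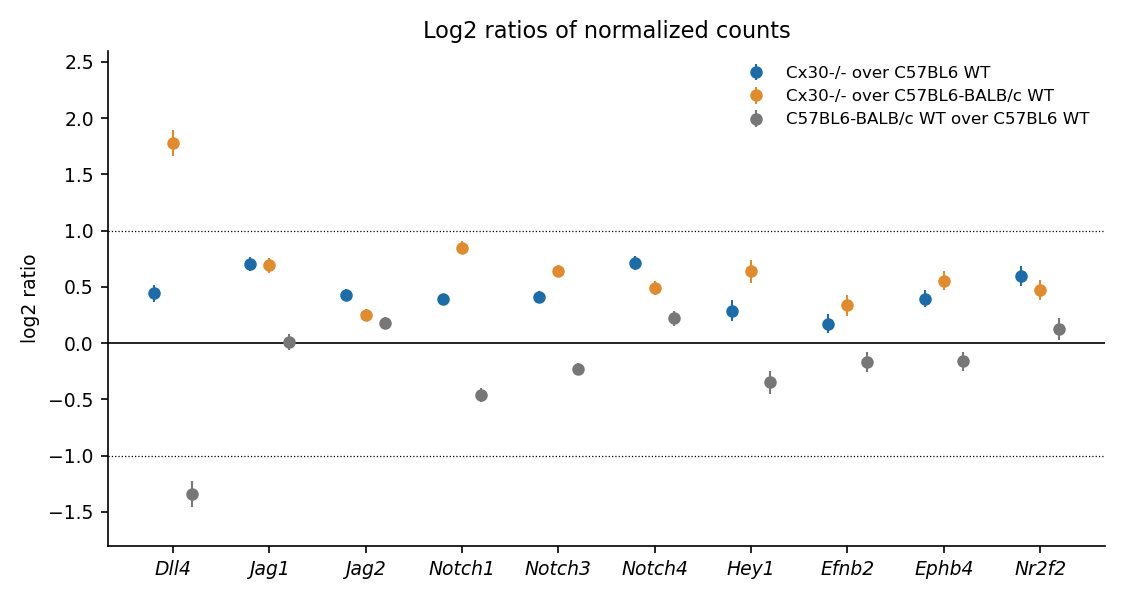
Log2 ratios of normalized counts for the 10 genes, Cx30-/- over C57BL6 WT (blue), Cx30-/- over C57BL6-BALB/c WT (orange) and C57BL6-BALB/c WT over C57BL6 WT (grey). Bars are 95% exact intervals of counting error, and dotted lines mark a ratio of 2. Blue and orange points are above 0 for each gene, and Dll4 (1.78 and -1.34) alone crosses a dotted line.

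Over the 10 genes the median log2 ratio was 0.42 over C57BL6 WT and 0.60 over C57BL6-BALB/c WT, while the median of all genes past the minimum was -0.005 and 0.004. All 10 genes had intervals above 0 in each comparison, as did 25.7% of 14768 genes over C57BL6 WT and 35.6% of 14883 over C57BL6-BALB/c WT. When libraries were scaled on 10 endothelial markers in place of all genes, 9 of the 10 were higher over C57BL6 WT (not Efnb2), and Dll4 alone was higher over C57BL6-BALB/c WT. On that scale the medians of all genes were -0.225 and -0.865, and the share of all genes that were higher was not computed. Scaled on all genes, the log2 ratios of these markers themselves ran from 0.07 to 0.61 and from 0.77 to 1.38, so small values have an uncertain sign. A ratio of at least 2 was reached by 0 of the 10 genes over C57BL6 WT, where 1.42% of genes were higher and 1.25% lower by that rule. Over C57BL6-BALB/c WT it was reached by Dll4, 1 of the 10, where 3.95% of genes were higher and 4.74% lower. In both comparisons together, which share the Cx30-/- library, 0 of the 10 passed, against 0.743% of 14680 genes higher and 0.674% lower.

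The WT libraries differed from each other in most of these genes. In C57BL6-BALB/c relative to C57BL6 WT vessels, 6 genes had intervals below 0 (Dll4, Notch1, Notch3, Hey1, Efnb2 and Ephb4) and 3 above 0 (Notch4, Jag2 and Nr2f2), the shares over all 14783 genes being 31.2% and 33.2%. Scaled on the endothelial markers, 9 of the 10 were higher in C57BL6-BALB/c WT and Dll4 alone was lower. On that scale the median log2 ratio of all genes was itself 0.649, and the share of all genes that were higher was not computed. Next to Dll4, the log2 ratio between the WT libraries ran from -0.46 (-0.52 to -0.40) for Notch1 to 0.22 (0.16 to 0.29) for Notch4. By the rule of a ratio of at least 2, Dll4 was lower, 1 of the 10, while 2.02% of all genes were lower and 1.41% higher.

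As a test across genes, the Cx30-/- library was set against both WT libraries by edgeR's quasi-likelihood test, in which the difference between the WT libraries, background included, was the only source of error. The share of all tested genes with an unadjusted p under 0.05 was not computed. Counts of genes by that rule, here and in the lists below, therefore have no background to be set against. None (0) of the 10 genes had an adjusted p under 0.05 in edgeR, as against 0.0512% of the 17565 genes tested (9 genes). The largest log2 fold changes were 0.97 for Dll4 (adjusted p = 0.421, edgeR) and 0.70 for Jag1 (adjusted p = 0.534, edgeR), and these were the 2 of the 10 with an unadjusted p under 0.05. DESeq2 also gave 0 of the 10, with 2 at an unadjusted p under 0.05. Across the alternatives run, the smallest adjusted p of the 10 genes lay between 0.0968 and 0.733.

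Endothelial markers were also highest in the Cx30-/- library. The summed level of 10 endothelial markers, each expressed in every library, was 86805 normalized counts in C57BL6 WT, 54617 in C57BL6-BALB/c WT and 102088 in Cx30-/- vessels. Their median log2 ratio was 0.22 over C57BL6 WT, below the 0.42 of the genes described, and 0.86 over C57BL6-BALB/c WT, above their 0.60. In such bulk samples, fewer cells of a type and less RNA per cell cannot be told apart. Scaling on these markers moved the median of all genes by -0.22 over C57BL6 WT and by -0.87 over C57BL6-BALB/c WT. On that scale, Notch4 (log2 ratio 0.50), Jag1 (0.48) and Nr2f2 (0.38) were furthest above C57BL6 WT, and Efnb2 was at -0.05. Over C57BL6-BALB/c WT, Dll4 was at 0.91, Notch1 at -0.02, and the other 8 between -0.62 for Jag2 and -0.18 for Jag1.

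**Figure D3:**
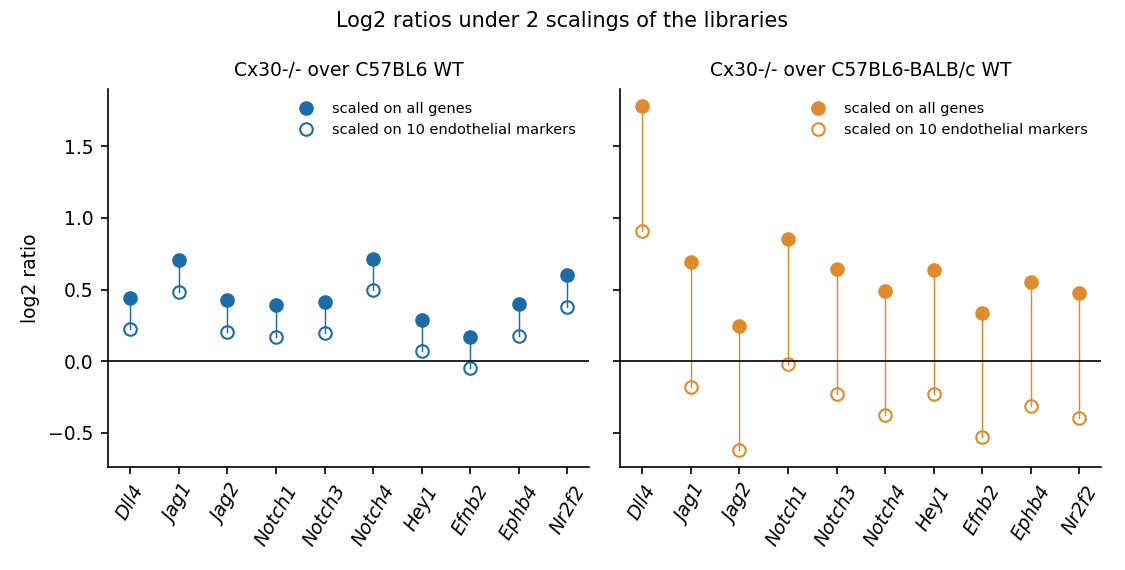
Log2 ratios of the 10 genes for Cx30-/- over C57BL6 WT (left) and over C57BL6-BALB/c WT (right), with libraries scaled on all genes (filled) or on 10 endothelial markers (open). On the endothelial scale 9 genes stay above 0 at left, and Dll4 alone (0.91) at right. The medians of all genes on that scale were -0.225 at left and -0.865 at right.

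Markers of other cells also differed between libraries, and their part in these results was not tested. Pericyte markers (8) had a median log2 ratio of 0.10 over C57BL6 WT and 0.64 over C57BL6-BALB/c WT, smooth muscle markers (8) of 0.37 and -0.12, and fibroblast markers (6) of 0.24 and 0.45. For neuron markers (8) the medians were -0.53 and -0.84, for oligodendrocyte markers (8) -0.71 and -0.59, and for astrocyte markers (8) -0.24 and -0.04. Microglia and macrophage markers (8) had medians of -0.01 and 0.23, choroid plexus and ependymal markers (7) of -0.55 and 0.51, and blood cell markers (7 past the minimum) of 0.85 and 2.36. None (0) of the listed markers had a count of 0 in any library, and edgeR called 1 of them, a blood cell marker, as higher in Cx30-/- vessels. The pericyte markers summed to 65443 normalized counts in C57BL6 WT, 41206 in C57BL6-BALB/c WT and 70218 in Cx30-/- vessels, and the smooth muscle markers to 43657, 64391 and 58851. Transcripts known from other cells were also present. In C57BL6 WT vessels the fibroblast markers summed to 10650 normalized counts, the microglia and macrophage markers to 5186 and the blood cell markers to 1744. The choroid plexus and ependymal markers summed to 148449 normalized counts in C57BL6 WT, 59534 in C57BL6-BALB/c WT and 81092 in Cx30-/- vessels. Most of this was Ttr alone, with 137638, 52929 and 71368 in these libraries. For the neuron markers the sums were 38930.4, 48099 and 26530.2 in the same order, for the oligodendrocyte markers 52476, 46392 and 41296, and for the astrocyte markers 44155, 42641 and 36296. The markers at least 2-fold apart from both WT libraries were Olig2, an oligodendrocyte lineage factor (-1.40 and -1.14), and from the blood list the erythroid enzyme Alas2 (1.09 and 2.03) and the neutrophil genes S100a8 (1.57 and 2.58) and S100a9 (1.6 and 2.36).

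Ratios of a pair of genes within a library do not depend on the scaling between libraries. The ratio of arterial Efnb2 to venous Ephb4, per transcript length, was 0.855 in C57BL6 WT, 0.851 in C57BL6-BALB/c WT and 0.731 in Cx30-/- vessels. It was therefore lower in Cx30-/- vessels for the transcript rows used, by a log2 odds ratio of -0.22 against C57BL6 WT (95% exact interval -0.34 to -0.11) and -0.22 against C57BL6-BALB/c WT (-0.34 to -0.09). The WT libraries differed by -0.01 (-0.13 to 0.12). The ratio was not computed with the shorter row of Efnb2 alone, whose log2 ratios were 0.41 and 0.45, against 0.40 and 0.56 for Ephb4. With 1 library per group the variation of the Efnb2 to Ephb4 ratio between preparations is unknown. The ratio of Hey1 to Nr2f2 did not follow it, being 1.95 in C57BL6 WT, 1.40 in C57BL6-BALB/c WT and 1.57 in Cx30-/- vessels, with the Cx30-/- value between both WT values. Dll4 relative to Pecam1, a general endothelial adhesion molecule, was 0.155, 0.0993 and 0.191 in the same order, highest in Cx30-/- vessels by log2 odds ratios of 0.30 (0.22 to 0.39) and 0.95 (0.82 to 1.07). This holds for Pecam1 as the denominator. Over C57BL6 WT the endothelial markers Erg (0.50) and Egfl7 (0.61) had larger log2 ratios than Dll4 (0.44), and the other markers smaller ones. Over C57BL6-BALB/c WT, Dll4 (1.78) was above each of these markers. Ratios of Dll4 to other markers were not computed. Notch3 relative to Pdgfrb, the PDGF receptor of pericytes, was 0.540 in C57BL6 WT, 0.748 in C57BL6-BALB/c WT and 0.687 in Cx30-/- vessels, again between both WT values. Notch3 is also a receptor of smooth muscle cells. In C57BL6-BALB/c over C57BL6 WT, smooth muscle markers had a median log2 ratio of 0.53 and pericyte markers of -0.67. The part of these cell types in the Notch3 to Pdgfrb ratio was not tested.

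**Figure D4:**
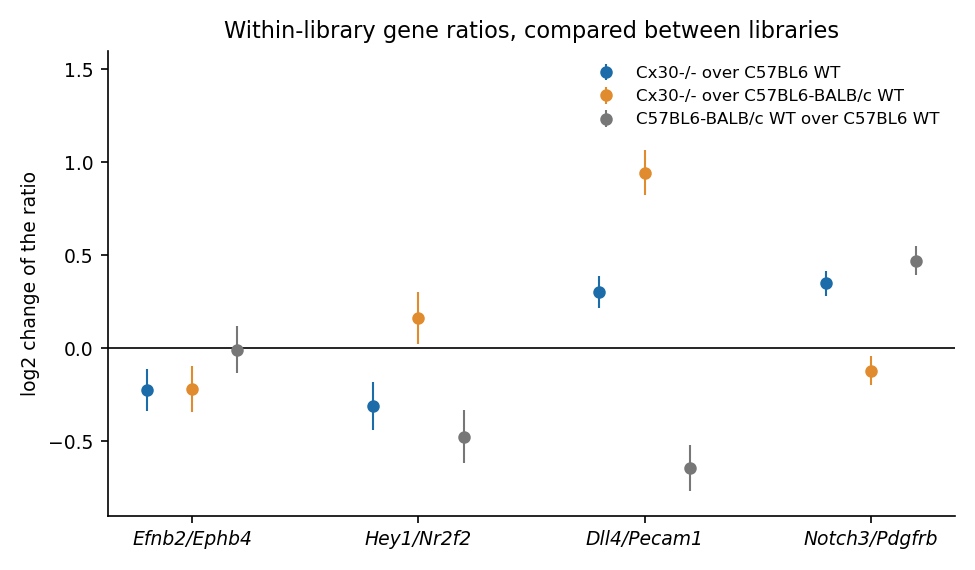
Log2 odds ratio between libraries of 4 within-library gene ratios, for Cx30-/- over C57BL6 WT (blue), Cx30-/- over C57BL6-BALB/c WT (orange) and C57BL6-BALB/c WT over C57BL6 WT (grey), with 95% exact intervals of counting error. For Efnb2/Ephb4 both Cx30-/- values lie at -0.22 and the WT value at -0.01.

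Other genes of the pathway were read from lists, in which the genes named as lowest or highest are so by the mean of both log2 ratios. Of 5 further Notch targets, 4 had intervals above 0 in each comparison and Hes5, a target known from neural stem cells, had intervals below 0, at -0.50 and -0.54. The share of all genes with intervals above 0 was 25.7% over C57BL6 WT and 35.6% over C57BL6-BALB/c WT. Nrarp, a feedback inhibitor induced by Notch, had 1343 normalized counts in C57BL6 WT vessels, 585 in C57BL6-BALB/c WT and 1873 in Cx30-/- vessels. This is the order seen in Dll4 and in each of the 10 endothelial markers. Nrarp was at least 2-fold higher over C57BL6-BALB/c WT alone (log2 ratios 0.48 and 1.68). Heyl, a Hey gene of mural cells, had log2 ratios of 0.34 and 0.96, Hes1 of 0.52 and 0.45, and Hey2 of 0.44 and 0.21. In edgeR 0 of these 5 targets had an adjusted p under 0.05, with 2 at an unadjusted p under 0.05. The remaining receptor, Notch2, differed little, with 0.16 (0.02 to 0.29) and -0.004 (-0.138 to 0.131). The other ligands (3 past the minimum) had medians of -0.17 and -0.60. Among them Dll1 was at 0.02 and 0.01, and Dlk1, a non-canonical ligand, at -0.64 and -0.60.

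The shared machinery of Notch signaling was closer to 0. In the list for the nuclear complex (10 genes, Rbpj among them), the median log2 ratio was 0.11 over C57BL6 WT and 0.01 over C57BL6-BALB/c WT. The high end was Maml2, a coactivator (0.40 and 0.41). The low end was Rbpjl (-0.14 and -0.09), which was near the minimum with 65 to 72 normalized counts and had intervals that include 0. Genes of receptor cleavage had medians of -0.11 and 0.19, with the protease Adam10 highest (0.18 and 0.53). The glycosyltransferases of Notch had medians of -0.12 and -0.05, with Mfng, a Fringe enzyme, highest (0.53 and 0.69) and its relative Rfng lowest (-0.17 and -0.56). For ligand endocytosis and receptor turnover the medians were -0.03 and -0.26, from Fbxw7, a ubiquitin ligase subunit that marks Notch for breakdown (-0.46 and -1.13), to Dtx3l (0.30 and 0.65). No gene (0) of these lists was at least 2-fold apart from both WT libraries, and edgeR called 0 of them, with 2 at an unadjusted p under 0.05.

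Further arterial and venous endothelial genes had similar medians. The 14 arterial genes had a median log2 ratio of 0.26 over C57BL6 WT and 0.69 over C57BL6-BALB/c WT, and the 11 venous genes in the files 0.32 and 0.74. At least 2-fold higher over C57BL6-BALB/c WT were 3 of the arterial genes (Vegfc, Gkn3 and Alpl) and 4 of the venous genes (Lcn2, Tmem252, Slc38a5 and Il1r1), named after their values were seen, and 0 of either list over C57BL6 WT. By the same rule 3.95% of all genes and 3 of the 10 general endothelial markers (Egfl7, Erg and Emcn) were higher over C57BL6-BALB/c WT. With edgeR 0 genes of either list had an adjusted p under 0.05, while 2 arterial and 3 venous genes had an unadjusted p under 0.05. By the mean of both log2 ratios the arterial list ran from Fbln5, an elastic fibre protein (0.23 and 0.18), to the growth factor Vegfc (0.17 and 1.40). Over C57BL6 WT alone its ends were Gkn3 (-0.18, interval -0.27 to -0.10) and the transcription factor Sox17 (0.82), with Alpl at -0.02, whereas Gkn3 was at 1.08 and Alpl at 1.13 over C57BL6-BALB/c WT. In the venous list the ends by the mean were Ackr1, a chemokine-binding receptor of venules (-0.48 and -0.12), and Lcn2, a secreted siderophore-binding protein (0.32 and 2.96). The plot by list sets these groups beside each other.

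**Figure D5:**
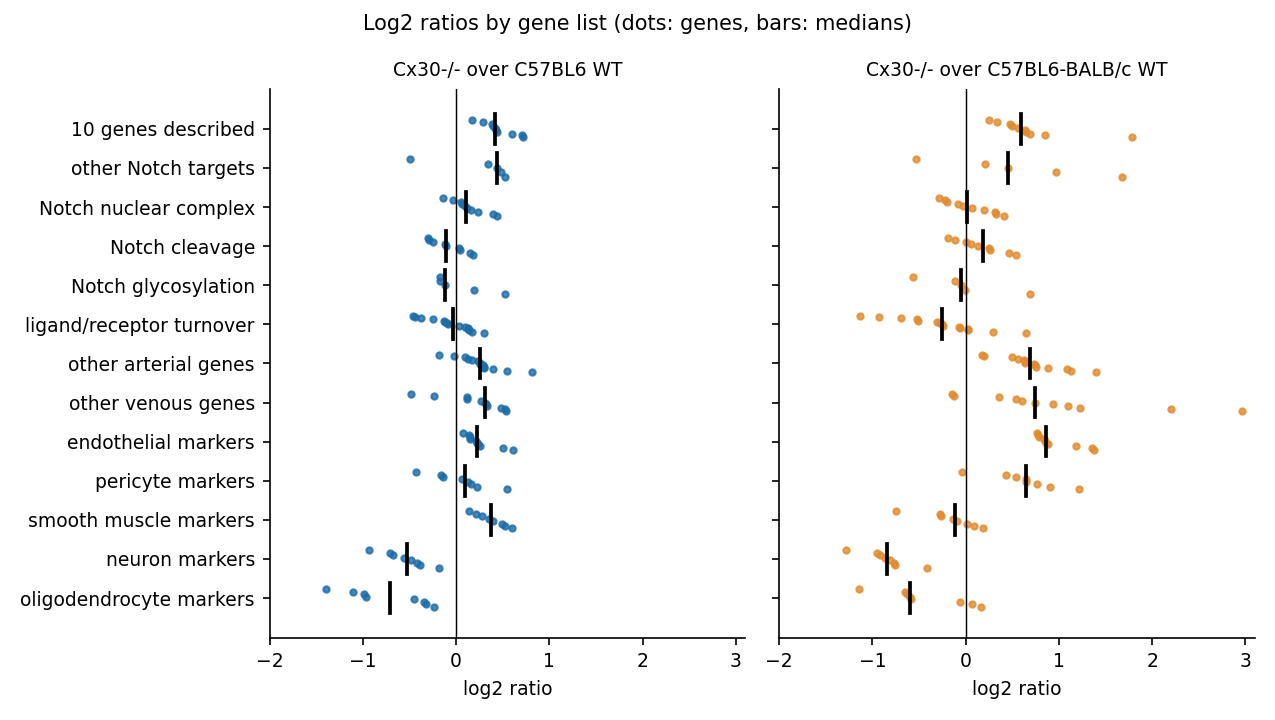
Log2 ratios of the genes of each list past 50 normalized counts in at least 1 library, Cx30-/- over C57BL6 WT (left) and over C57BL6-BALB/c WT (right). Each dot is a gene and each black bar the list's median, which for the 10 genes described is 0.42 at left and 0.60 at right, and for neuron markers -0.53 and -0.84.

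By position in GENCODE M21 on GRCm38, Dll4 (ENSMUSG00000027314) lies on chromosome 2 from 119325784 to 119335962, plus strand. Chromosome 2 also holds Notch1 (ENSMUSG00000026923, 26457903 to 26516663, minus strand) and Jag1 (ENSMUSG00000027276, 137081456 to 137116644, minus strand). Notch3 (ENSMUSG00000038146, 32120820 to 32166852, minus strand) and Notch4 (ENSMUSG00000015468, 34564268 to 34588503, plus strand) are on chromosome 17. Efnb2 (ENSMUSG00000001300) is on chromosome 8 from 8617434 to 8661242, minus strand, and Ephb4 (ENSMUSG00000029710) on chromosome 5 from 137350109 to 137378669, plus strand. Jag2 (ENSMUSG00000002799) is on chromosome 12 from 112907819 to 112929776, Hey1 (ENSMUSG00000040289) on chromosome 3 from 8663359 to 8667256, and Nr2f2 (ENSMUSG00000030551) on chromosome 7 from 70351944 to 70366735, all on the minus strand.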

How the data were processed

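Polyadenylated RNA of brain vessels was sequenced without strand. The authors trimmed and filtered the reads with Eoulsan, aligned them with Bowtie, dropped reads matching more than once, and deposited 82813 rows, 1 per Ensembl transcript, holding the raw count of alignments on its exons and that count as a fraction of a library total. The deposited transcript lengths and numbers of bases without a read are other columns of the same files.

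Transcripts were named through GENCODE M21 (83.8% of rows), and each gene took its row with the largest total count. The methods name mm10, but only 1 of the 10 rows used starts where GENCODE M21 on GRCm38 has it, so positions are those of GENCODE. A symbol held by several identifiers kept the one with the most counts. Median-of-ratios size factors scaled the counts (1.1452 for C57BL6 WT, 0.9258 for C57BL6-BALB/c WT and 0.9532 for Cx30-/-). A gene entered a comparison if either library had 50 or more normalized counts. Intervals are exact binomial at 95% (scipy 1.17.1), and those of within-library ratios exact conditional odds ratio intervals. edgeR 4.0.16 (filterByExpr, TMM, quasi-likelihood test, Benjamini-Hochberg over all genes) was tested on simulated data for the comparison of Cx30-/- with both WT libraries. With 200 of 17565 genes changed by 3 on the log2 scale it found 190, and 9 others. Smaller differences were not simulated. DESeq2 1.42.0 was an alternative. Others were size factors of the compared pair, TMM, total count, upper quartile and endothelial markers, a gene's summed or longest row, a pseudocount of 1, other minimums, and a fold of 1.5. From each further list of the pathway and of arterial and venous genes, the genes named are its highest and lowest by mean log2 ratio, and from any list those 2-fold apart from both WT libraries. Others were chosen after values were seen (Heyl, Hes1, Hey2, Sox17, Gkn3, Alpl, Tmem252, Slc38a5, Il1r1, Egfl7, Erg, Emcn). A gene that this rule names is not reported here. The members and lists were chosen with earlier results of these data known. The 3 genes nearest in pattern were sought for Dll4, Notch3 and Nr2f2 by Euclidean distance of their 2 log2 ratios.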

Additional observations from a re-analysis of the deposited data

How the results depend on the processing

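With 1 library per group, intervals cover counting error only, and differences between mice or preparations could not be measured. No paired analysis was possible because each group holds 1 library. Scaling on the endothelial markers turned the median log2 ratio of the 10 genes from 0.60 to -0.27 over C57BL6-BALB/c WT and from -0.16 to 0.49 between the WT libraries, and lowered it from 0.42 to 0.20 over C57BL6 WT. It also left 0 genes at least 2-fold apart over C57BL6-BALB/c WT and 0 between the WT libraries, in place of 1 each. This scaling shifted the median of all genes by 0.65 between the WT libraries. A fold of 1.5 raised the number of genes apart from 0 to 3 over C57BL6 WT, from 1 to 5 over C57BL6-BALB/c WT and from 0 to 1 over both, all higher in Cx30-/-. The share of all genes apart by a fold of 1.5 was not computed, so these counts cannot be set against a background. Under the other scalings, row choices and the pseudocount the medians kept their sign. They moved furthest with total count, from 0.60 to 0.66 over C57BL6-BALB/c WT and from -0.16 to -0.22 between the WT libraries. The numbers of genes at least 2-fold apart were kept under these settings and the other minimums. The within-library ratios stayed within their intervals with a gene's summed or longest row. Because rows of the same gene can count the same alignments, these row choices are not independent checks. Jag1 between the WT libraries was below 0 with TMM, total count or the factors of the pair, and above 0 otherwise. Scaling on the endothelial markers moved all 30 single log2 ratios out of their intervals, and total count moved 5 of the 30. The edgeR test called 0 of the 10 genes under each alternative, whereas the number over all genes was 9 in the main test, 135 without a filter, 35 with median-of-ratios factors, 14 with summed rows and 7 with DESeq2.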

Other observations

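The genes closest to 3 of these genes in pattern, by the distance between their pairs of log2 ratios (Cx30-/- over each WT library), were looked up among 13980 genes with at least 50 normalized counts in every library. Nearest to Dll4 were Cp, encoding ceruloplasmin (log2 ratios 0.40 and 1.85), Grrp1 (0.52 and 1.84) and Nrarp (0.48 and 1.68), and only 2 genes lay within 0.1 of it. Around Notch3 there were 143 genes within 0.1, the nearest being Syde1 (0.41 and 0.65), Lamc3, a laminin chain (0.40 and 0.65), and Zfp580 (0.40 and 0.65). Nr2f2 had 46 such genes, with 1110017D15Rik (0.60 and 0.48), Rexo5 (0.59 and 0.47) and Map3k6 (0.62 and 0.47) nearest. A pattern over 3 libraries has only 2 free values, so that many genes resemble each other in it.

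The antisense genes that overlap Dll4 and Notch1 had the library order of their partners. For Gm14207, opposite Dll4, the normalized counts were 165 in C57BL6 WT vessels, 70.2 in C57BL6-BALB/c WT vessels and 247 in Cx30-/- vessels. Opposite Notch1, 0610009E02Rik had 1441, 956 and 1526 normalized counts in that order and Gm13568 had 428, 282 and 517. Which strand these reads came from cannot be told in these libraries.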
